A study of Mus musculus with 18 samples.

Results

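Mature bone marrow group 2 innate lymphoid cells (ILC2) of CD45 knockout (KO) mice were set against immature bone marrow ILC2 of the same genotype, across all genes. The question was whether the maturation step has the same transcript changes without CD45 as with it. The step was covered by 3 mature CD45 KO and 3 immature CD45 KO libraries, chosen by stage and genotype label alone, 6 of the 18 libraries of the series. Every mouse carried a Rag2 KO, and the CD45 KO mice carried a KO of CD45 in addition, so the control animals lacked Rag2 as well. The 6 reference libraries were 3 of mature and 3 of immature bone marrow ILC2 from Rag2 KO mice with CD45, and the remaining 6 were lung ILC2 of both genotypes. The labels give no age, do not name the surface markers that separated mature from immature cells, and do not say whether the 3 libraries of a group came from separate mice. If they did not, p-values measure a spread that may be technical.

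ILC2 are tissue lymphocytes without rearranged antigen receptors that answer interleukin 33 and other epithelial alarmins with type 2 cytokines. In bone marrow they develop from a common lymphoid source through a precursor stage that still divides and has little of the lectin-like receptor KLRG1, and mature cells gain that receptor. CD45, encoded by Ptprc, is a receptor tyrosine phosphatase of blood cells that acts on Src-family and JAK kinases. Rag2 is needed to rearrange antigen receptor genes, so mice without it have no T or B cells.

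Total counts were 87335 to 122250 in the mature CD45 KO libraries and 97559 to 117933 in the immature CD45 KO libraries, against 69987 to 103057 in mature control and 84446 to 94758 in immature control libraries. At this depth 1916 of 24781 genes had enough counts to be tested, and their typical mean was low, with a median of 12.6 counts in a library. Levels are normalised CPM (counts scaled to library size, to 3 significant digits), mean ± SD has n = 3, and a difference is a log2 fold change ± SE, mature over immature. A gene passed when its adjusted p in edgeR's quasi-likelihood test (Benjamini-Hochberg over the 1916 genes) was under 0.05, and intervals of differences are at 95%. Counts are relative to each library's total, so fewer cells of a kind and less RNA per cell cannot be told apart.

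The deleted gene was read first as a check of the labels. Ptprc stood at 238, 101 and 88.0 CPM in mature CD45 KO and 98.6, 138 and 42.0 CPM in immature CD45 KO libraries, against 253 to 541 CPM in mature control and 342 to 464 CPM in immature control libraries. The library labelled mature KO replicate 1 was thus close to the lowest control, and the other 5 CD45 KO libraries lay well under it. It stood apart in some other genes, picked after their values were seen. Ccr9 was at 191 CPM there and at 665 and 704 CPM in the other mature CD45 KO libraries, and Cxcr6 at 715 CPM there and at 286 and 396 CPM. The progenitor gene Myb had 7 counts there and 0 in the others. Across tested genes its mean r with its own group was 0.907, against 0.925 and 0.924 for the other mature CD45 KO libraries. In mature control libraries that value was 0.907 to 0.915. Values without the library labelled mature KO replicate 1 are given where it ends or brings a call or moves a step by over 1.5 times.

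The 12-gene list of ILC2 markers summed to 4880 to 6930 CPM in mature CD45 KO and 4540 to 5430 CPM in immature CD45 KO libraries. Members such as Gata3 and Il1rl1 were present in every marrow library. Il13 had 0 counts in the CD45 KO libraries. Il5 had 3, 0 and 0 counts in mature and 1, 0 and 1 counts in immature CD45 KO libraries. Cd3e and Ncr1, which define T cells and natural killer cells, had 0 counts. Of the other CD3 genes, Cd3d had 1, 0 and 0 counts and Cd3g 0, 2 and 3 counts in mature CD45 KO libraries. Both had 0 counts in all other marrow libraries. The 3 detected T cell markers summed to 4 to 8 counts in mature and 1 to 3 counts in immature CD45 KO libraries, and the 3 detected natural killer markers to at most 1 count in mature and 1 to 2 counts in immature CD45 KO libraries. Detected erythroid markers summed to 71.5 to 176 CPM in mature and 77.9 to 168 CPM in immature CD45 KO libraries, and dendritic cell markers to 84.2 to 143 CPM in mature and 86.5 to 207 CPM in immature ones. The 11 detected neutrophil markers summed to 33.7 to 70.4 CPM in mature and 17.3 to 39.4 CPM in immature CD45 KO libraries. The detected blood progenitor markers, Myb and Kit among them, summed to 44.0 to 203 CPM in mature and 31.5 to 69.2 CPM in immature CD45 KO libraries. These are 5 to 17 and 3 to 8 counts. Kit, which is also on the ILC2 list, had 9, 6 and 3 of them in mature and 4, 6 and 2 in immature CD45 KO libraries. Flt3, Gata2, Cebpa, Hoxa9 and Procr had 0 counts. The part of all these markers of other cells in the results was not tested. Among the reference libraries, mature control replicate 1 held 2890 CPM of neutrophil markers (S100a8 with 75 and S100a9 with 67 counts).

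Without CD45, 13 of the 1916 genes passed between mature and immature ILC2, 0.678%, with 7 higher (0.365%) and 6 lower (0.313%) in mature cells. Genes that were higher in mature cells were the stage receptor Klrg1, the antiproliferative gene Btg1, the lymphocyte GTPase gene Gimap3, the small GTPase gene Arl5a, the ubiquitin ligase gene Rnf128, the secreted fibrinogen-like gene Fgl2 and the glucocorticoid receptor gene Nr3c1. Genes that were lower in mature cells were the histone H2A genes Hist1h2ao and Hist1h2ap, the tubulin gene Tuba1b, the chromatin protein gene Hmgb2, Pxdc1, and the galectin gene Lgals1. In all 13 the mature and immature libraries did not overlap, as was the case for 241 of the 1916 tested genes (12.6%). Without adjustment 154 genes (8.04%) had a p under 0.05. The Wald test of DESeq2 called 3 of the 13, Klrg1, Tuba1b and Btg1, and with single libraries left out edgeR called 7 (without immature CD45 KO replicate 2) to 20 genes (without mature CD45 KO replicate 2), and 8 without immature CD45 KO replicate 1 or 3.

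**Figure D1:**
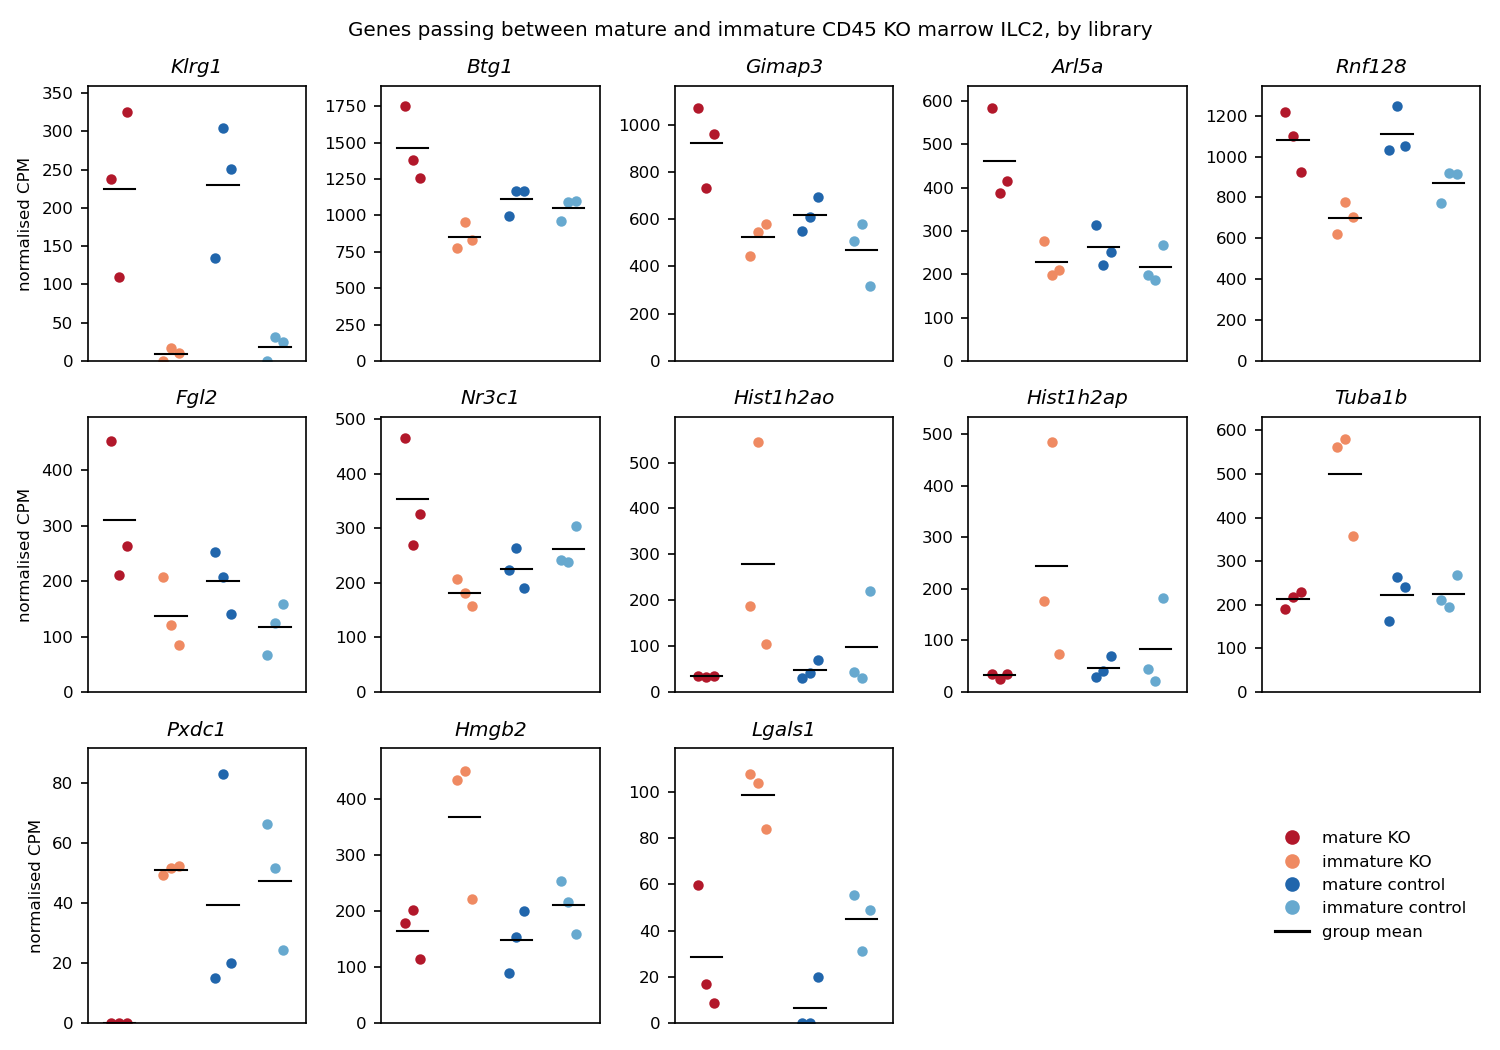
Normalised CPM of the 13 passing genes in each bone marrow library, 1 panel per gene, with groups along the x axis in the order mature CD45 KO, immature CD45 KO, mature control and immature control. Points are libraries and lines are means of 3 libraries; in every panel the mature and immature CD45 KO points do not overlap, while the control points overlap in all panels but those of Klrg1, Rnf128 and Lgals1.

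Klrg1, which encodes the inhibitory lectin-like receptor that marks mature ILC2 (chromosome 6, 122270596 to 122282882 on the minus strand of mm10, protein coding), had the smallest adjusted p of the step. It was at 238, 110 and 326 CPM in mature CD45 KO libraries, against 0, 17.3 and 10.5 CPM in immature CD45 KO libraries, which are 20, 13 and 37 counts against 0, 2 and 1. Every mature library was far above every immature library. The means were 224 ± 109 and 9.27 ± 8.72 CPM, a log2 fold change of 4.35 ± 0.56 (adjusted p = 2.6e-08), and the call was kept with each of the 6 libraries left out. In control mice Klrg1 was at 134, 305 and 251 CPM in mature and 0, 31.0 and 24.4 CPM in immature libraries (3.56 ± 0.53, adjusted p = 3.13e-06). The step without CD45 minus the step with CD45 was 0.79 on the log2 scale, with an interval of -1.28 to 2.85 that holds differences of either sign. The labels do not say whether the stages were sorted on KLRG1. If they were, the sort itself set the Klrg1 step in both genotypes.

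Btg1 belongs to the BTG/TOB family, whose members restrain proliferation and recruit mRNA deadenylases. It was at 1750, 1380 and 1260 CPM in mature CD45 KO libraries, against 779, 952 and 830 CPM in immature CD45 KO libraries. All 3 mature CD45 KO libraries were above, and all 3 immature CD45 KO libraries below, the 6 control marrow libraries, which ran from 962 to 1170 CPM. The step was 0.76 ± 0.15 without CD45 (adjusted p = 8.89e-04) and 0.09 ± 0.16 with it, and the call was kept with each library left out. The difference of the 2 steps was 0.67 (interval 0.23 to 1.10, adjusted p = 0.826 in edgeR's test over all genes).

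Gimap3 encodes a GTPase of the immunity-associated family that supports lymphocyte survival. It was at 1070, 733 and 959 CPM in mature CD45 KO libraries, against 444, 545 and 578 CPM in immature CD45 KO libraries. The 3 mature CD45 KO libraries were the highest of the 12 marrow libraries. The step was 0.80 ± 0.17 (adjusted p = 0.00302), against 0.40 ± 0.20 in control, and the adjusted p was 0.0637 without immature CD45 KO replicate 1.

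Arl5a, a small GTPase gene of the ARF-like family that acts at the Golgi, was at 584, 387 and 414 CPM in mature CD45 KO libraries, against 276, 199 and 210 CPM in immature CD45 KO libraries. Here too the mature CD45 KO libraries were the highest of all marrow libraries. The step was 0.99 ± 0.22 (adjusted p = 0.00548), against 0.27 ± 0.27 in control. The call was lost without the library labelled mature KO replicate 1, or immature CD45 KO replicate 2 or 3 (highest adjusted p = 0.116). Without the first of these the step was 0.81 (adjusted p = 0.116).

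Rnf128 encodes GRAIL, a ubiquitin ligase known from T cell unresponsiveness. It was at 1220, 1100 and 924 CPM in mature CD45 KO libraries, against 621, 779 and 704 CPM in immature CD45 KO libraries. The control libraries were also apart in this gene, with 1030, 1250 and 1050 CPM in mature and 774, 920 and 915 CPM in immature cells. The step was 0.61 ± 0.15 without CD45 (adjusted p = 0.0291) and 0.35 ± 0.16 with it. The first call was lost without the library labelled mature KO replicate 1, mature CD45 KO replicate 2, or immature CD45 KO replicate 1 or 3 (highest adjusted p = 0.256). Without the library labelled mature KO replicate 1 the step was 0.53 (adjusted p = 0.148).

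Fgl2, encoding a secreted fibrinogen-like protein that dampens immune responses, was at 453, 211 and 264 CPM in mature CD45 KO libraries, against 207, 121 and 84.0 CPM in immature CD45 KO libraries. The lowest mature library was just above the highest immature one. The step was 1.10 ± 0.28 (adjusted p = 0.0308), and 0.74 ± 0.35 in control. The call was lost without the library labelled mature KO replicate 1, or immature CD45 KO replicate 2 or 3 (highest adjusted p = 0.411). Without the first of these the step was 0.78 (adjusted p = 0.411).

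Nr3c1, the glucocorticoid receptor gene, was at 465, 270 and 326 CPM in mature CD45 KO libraries, against 207, 182 and 158 CPM in immature CD45 KO libraries. In control mice the 2 stages overlapped, with 224, 264 and 190 CPM in mature and 243, 238 and 305 CPM in immature libraries. The step was 0.91 ± 0.24 without CD45 (adjusted p = 0.0466) and -0.23 ± 0.27 with it, a difference of 1.14 (interval 0.41 to 1.86, adjusted p = 0.761). The first call was kept only without mature CD45 KO replicate 2, and the adjusted p was 0.411 at the highest, so it rests on nearly every library. Without the library labelled mature KO replicate 1 the CD45 KO step was 0.70 (adjusted p = 0.411). Of 9 tested glucocorticoid response genes, 0 passed, and their median step was 0.08 (-0.02 to 0.24 with single libraries left out).

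The 2 histone genes that passed encode the core histone H2A and lie in the replication-dependent histone cluster on chromosome 13. Their last 60 coding bases are shown because the 2 genes share nearly all of their sequence. Sequence is from the GRCm38 genome at the GENCODE M21 coding end, 5′ to 3′ on the coding strand, with the stop codon in capitals, at chr13:21810800-21810859 on the plus strand for Hist1h2ao and chr13:21833083-21833142 on the minus strand for Hist1h2ap.
Hist1h2ao: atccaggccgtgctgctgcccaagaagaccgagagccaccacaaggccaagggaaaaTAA
Hist1h2ap: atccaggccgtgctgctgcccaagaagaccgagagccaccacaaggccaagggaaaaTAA
The 2 coding sequences of 393 bases differ at 0 positions, and the transcripts of 480 and 482 bases share an identical run of 452 bases. Reads from that run fit both genes, so their counts are uncertain and not independent, and they stand as 2 among the 13 passing genes.

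Hist1h2ao was at 35.7, 33.7 and 35.2 CPM in mature CD45 KO libraries (3, 4 and 4 counts), against 187, 545 and 105 CPM in immature CD45 KO libraries (19, 63 and 10 counts). The mature libraries were close together, and immature CD45 KO replicate 2 was far above the other 2. The step was -3.01 ± 0.49 (adjusted p = 3.14e-05), and the adjusted p was 0.15 without immature CD45 KO replicate 2. For Hist1h2ap, which shares that sequence, the step was -2.95 ± 0.52 (adjusted p = 1.46e-04, and 0.234 without that library). In control mice 1 immature library also had many counts, at 44.2, 31.0 and 220 CPM of Hist1h2ao, against 29.8, 41.6 and 70.2 CPM in mature controls. The other 49 detected histone cluster genes summed to 572, 362 and 422 CPM in mature and 375, 415 and 399 CPM in immature CD45 KO libraries, which overlapped. Most histone mRNAs of this cluster end in a stem-loop without a poly(A) tail, and the libraries were primed with oligo-dT.

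Tuba1b, which encodes an alpha-tubulin of the microtubules and spindle, was at 191, 219 and 229 CPM in mature CD45 KO libraries, against 562, 580 and 357 CPM in immature CD45 KO libraries. The 3 immature CD45 KO libraries were above all other 9 marrow libraries, whose highest value was 268 CPM. The means were 213 ± 19.8 and 500 ± 124 CPM, a step of -1.23 ± 0.23 (adjusted p = 3.02e-04), and the call was kept with each library left out. In control mice the step was 0.02 ± 0.29, and the difference was -1.24 (interval -1.98 to -0.50, adjusted p = 0.761).

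Hmgb2, a chromatin protein gene that is abundant in dividing cells, was at 179, 202 and 114 CPM in mature CD45 KO libraries, against 434, 450 and 221 CPM in immature CD45 KO libraries. The lowest immature library was just above the highest mature one. The step was -1.18 ± 0.27 (adjusted p = 0.0106) and -0.45 ± 0.34 in control. The call was lost without mature CD45 KO replicate 3, or immature CD45 KO replicate 1 or 2 (highest adjusted p = 0.174).

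Pxdc1, a PX domain gene, had 0 counts in all 3 mature CD45 KO libraries, against 49.3, 51.9 and 52.5 CPM in immature CD45 KO libraries (5, 6 and 5 counts). It was detected in all 6 control libraries, at 14.9, 83.3 and 20.1 CPM in mature and 66.3, 51.7 and 24.4 CPM in immature cells. Set against a floor of 3 counts over the group, it was at least 5.4-fold lower in mature than in immature CD45 KO cells (adjusted p = 0.00302), and the call was kept with each library left out. Pxdc1 had at most 6 counts in a marrow library and 22 to 55 in lung libraries, so it met the count filter through lung.

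Lgals1, encoding the glycan-binding protein galectin-1, was at 59.6, 16.8 and 8.80 CPM in mature CD45 KO libraries, against 108, 104 and 84.0 CPM in immature CD45 KO libraries, or 5, 2 and 1 counts against 11, 12 and 8. Control cells were apart the same way, with 0, 0 and 20.1 CPM in mature and 55.3, 31.0 and 48.8 CPM in immature libraries. The step was -1.91 ± 0.51 without CD45 (adjusted p = 0.0451) and -2.24 ± 0.86 with it, the only one of the 13 genes with the larger step in control. The first call was kept only without the library labelled mature KO replicate 1, and its highest adjusted p was 0.26. Lgals1 too met the count filter through lung, where it had 19 to 52 counts.

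**Figure D2:**
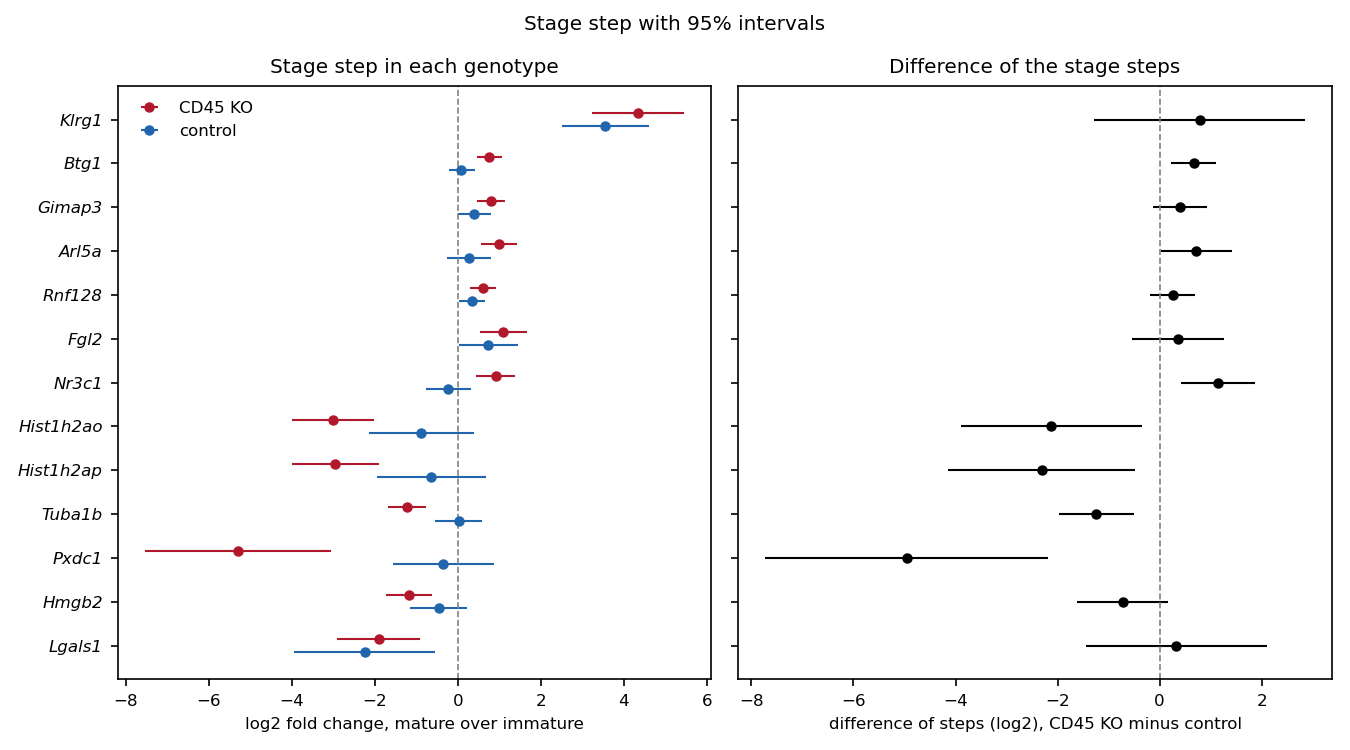
Left, stage step of each passing gene as a log2 fold change, mature over immature, with 95% intervals, for CD45 KO and for control; right, the CD45 KO step minus the control step with its interval. Positive values are higher in mature cells; the CD45 KO step is farther from 0 for 12 of the 13 genes, and the fitted value of Pxdc1 depends on the prior count because its mature CD45 KO libraries are at 0.

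The genes with the next smallest p-values did not pass. Neb, which encodes the giant filament protein nebulin, was at 453, 202 and 185 CPM in mature CD45 KO libraries, against 78.9, 156 and 116 CPM in immature CD45 KO libraries (1.16 ± 0.31, adjusted p = 0.0507), and its control step was 1.49 ± 0.45. Its CD45 KO step was 0.71 without the library labelled mature KO replicate 1 (adjusted p = 0.721), and it passed without mature CD45 KO replicate 2 or 3 (0.0241 and 0.0179). Cxcr6, a chemokine receptor gene of ILC precursors and tissue lymphocytes, had a step of 0.81 ± 0.23 (adjusted p = 0.0706), of 0.43 without the library labelled mature KO replicate 1, where it was highest, and of 1.09 without mature CD45 KO replicate 2 (adjusted p = 0.00268). Klf2, a transcription factor gene of lymphocyte egress and quiescence, was at 119, 194 and 238 CPM in mature and 118, 51.9 and 63.0 CPM in immature CD45 KO libraries (1.28 ± 0.38, adjusted p = 0.119), and it passed without the library labelled mature KO replicate 1 (1.47, adjusted p = 0.0432). On the lower side Crip1, a LIM domain gene, had a step of -1.03 ± 0.30 (adjusted p = 0.109), and passed without mature CD45 KO replicate 2 (-1.59, adjusted p = 0.00747). Arpp19, encoding a phosphatase inhibitor active at mitosis, was at -1.22 ± 0.37 (adjusted p = 0.131).

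Among surface markers and receptors of ILC2, Klrg1 alone passed. With 0.678% of all tested genes passing, 0 passing genes in a list of this size is uninformative, here and in the other lists. Of 14 tested genes of the stage and surface list, 8 steps were positive and 6 negative. At an unadjusted p under 0.05 were 3 higher and 2 lower members, against 8.04% of all tested genes. The median was 0.17, against 0.02 over all tested genes. Without the library labelled mature KO replicate 1 that median was -0.01. Il1rl1, which encodes the interleukin 33 receptor, was at 1750, 1090 and 1090 CPM in mature CD45 KO cells and 1030, 917 and 809 CPM in immature ones, without passing (0.49 ± 0.15, adjusted p = 0.143). Its step was 0.25 without the library labelled mature KO replicate 1 and 0.61 without mature CD45 KO replicate 2 (adjusted p = 0.047). Thy1, a surface glycoprotein gene of lymphocytes, had a step of -0.64 ± 0.27 without CD45 (adjusted p = 0.447) and -1.08 ± 0.29 with it (adjusted p = 0.31). Il2ra, the interleukin 2 receptor alpha chain gene, had a step of 0.00 with an interval of -0.33 to 0.33. Il7r (0.42 ± 0.19), Icos (-0.49 ± 0.27), Ly6a (-0.32 ± 0.15) and Kit (0.56 ± 0.51) did not pass either, and without the library labelled mature KO replicate 1 the steps were -0.17 for Ly6a and 0.01 for Kit.

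Transcription factors of the lineage gave 0 passing genes of 10 tested, with 3 positive and 7 negative steps. The median was -0.14 (-0.27 to -0.06 with single libraries left out). At an unadjusted p under 0.05 there were 0 members, against 8.04% of all tested genes. Gata3, the master regulator of type 2 lymphocytes, was at 2350, 1830 and 1500 CPM in mature and 2130, 2220 and 1900 CPM in immature CD45 KO libraries (-0.16, interval -0.43 to 0.11). Id2, an inhibitor of E proteins needed by all ILC, had a step of -0.11 with an interval of -0.38 to 0.16. Without the library labelled mature KO replicate 1 the steps were -0.33 for Gata3 and -0.02 for Id2, and neither passed. Bcl11b, which holds ILC2 identity, was at -0.17 ± 0.20. Rora, needed for ILC2 development, was at 0.22 ± 0.24, and at -0.22 without the library labelled mature KO replicate 1. Tcf7 had too few counts to be tested.

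Effector genes gave 0 passing genes of 12 tested, and 3 of these had a CD45 KO group at 0. Areg, the amphiregulin gene, was at 35.7, 16.8 and 123 CPM in mature and 29.6, 26.0 and 0 CPM in immature CD45 KO libraries, and the groups overlapped (1.58 ± 0.62, adjusted p = 0.374). Of 14 tested homing genes 0 passed. Ccr9, the gut-homing receptor gene, was at 191, 665 and 704 CPM in mature and 789, 917 and 746 CPM in immature CD45 KO libraries. Its step was -0.59 ± 0.19 (adjusted p = 0.181), and it was -0.26 without the library labelled mature KO replicate 1 and -0.84 without mature CD45 KO replicate 3 (adjusted p = 0.0302). Ccr2, a receptor for exit from bone marrow, had a step of 0.37 ± 0.19, and of 0.05 without that library. The 9 tested ILC progenitor genes had a median step of 0.43 with 0 passing, and the median was -0.04 without it.

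Of 33 listed cell cycle and proliferation genes 9 could be tested, and 2 of these passed as lower in mature CD45 KO cells, Tuba1b and Hmgb2. The steps of 8 of the 9 were negative, against 47.9% of all tested genes, and the median was -0.52. The list was drawn up with Tuba1b already known to be high in immature CD45 KO cells, so the count is a description. H2afz, a histone variant gene, was at 119, 152 and 176 CPM in mature and 296, 329 and 221 CPM in immature CD45 KO libraries (-0.90 ± 0.28, adjusted p = 0.14), with a like step of -0.92 ± 0.31 in control. Hmgb1, another chromatin protein gene, had a step of -0.52 ± 0.19 (adjusted p = 0.289). Pcna, the sliding clamp of DNA replication, was at -0.70 ± 0.40 (adjusted p = 0.686), and its groups overlapped.

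The 24 genes of that list with too few counts to be tested were summed. They added up to 453, 446 and 545 CPM in mature CD45 KO libraries, against 808, 1160 and 903 CPM in immature CD45 KO libraries, and these groups did not overlap. In control they added up to 462, 347 and 652 CPM in mature and 564, 496 and 562 CPM in immature libraries, which overlapped. Among them Mki67, the proliferation antigen Ki-67, had 0, 2 and 0 counts in mature and 6, 9 and 5 counts in immature CD45 KO libraries. Top2a, the topoisomerase of chromosome segregation, had 1, 1 and 3 counts in mature and 7, 14 and 7 counts in immature CD45 KO libraries. Stmn1, a microtubule regulator, had 3, 2 and 0 counts in mature and 9, 19 and 3 counts in immature CD45 KO libraries. These 3 genes were chosen after their values were seen.

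Over the whole list the 33 genes summed to 3120, 3290 and 3250 CPM in mature CD45 KO libraries, against 4200, 5300 and 4160 CPM in immature CD45 KO libraries. In control the sums were 2730, 3100 and 3370 CPM in mature and 3550, 3250 and 3200 CPM in immature libraries. The 3 immature CD45 KO libraries were above all other 9 marrow libraries, while the control stages overlapped. The tested members of the list had a median step of -0.10 in control, with 3 positive and 6 negative.

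**Figure D3:**
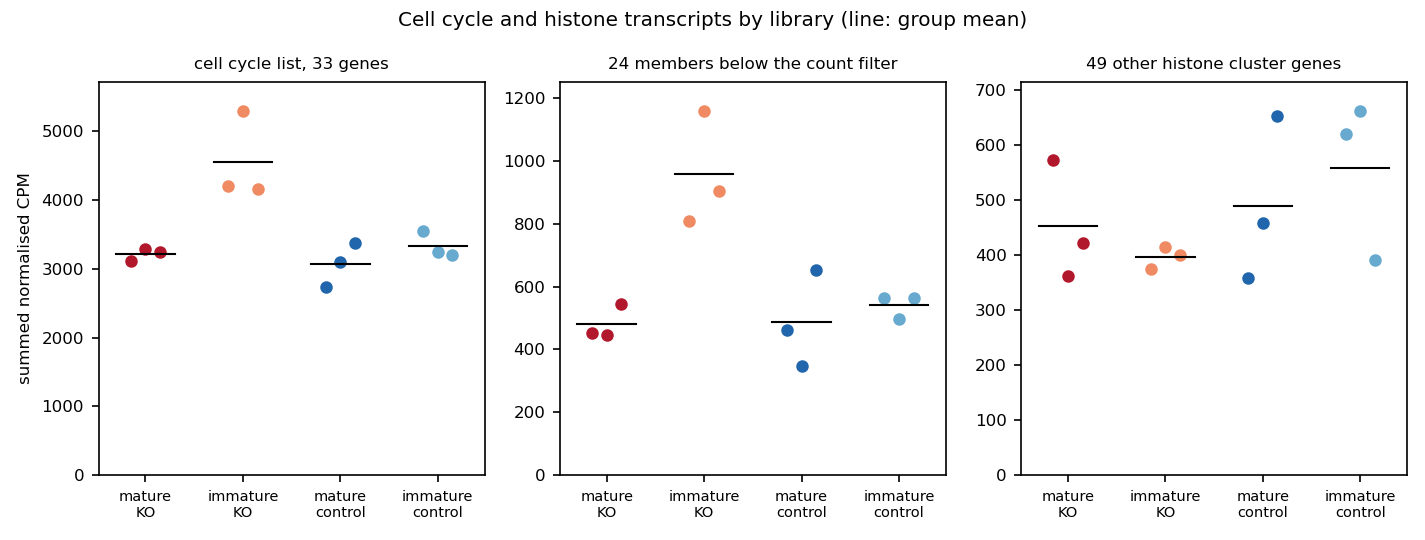
Summed normalised CPM in each bone marrow library of the 33 cell cycle and proliferation genes (left), of the 24 among them below the count filter (middle) and of the 49 other histone cluster genes (right), with groups in the order mature CD45 KO, immature CD45 KO, mature control and immature control. Points are libraries and lines are group means. Over the 33 genes, Tuba1b and Hmgb2 among them, the 3 immature CD45 KO libraries lie between 4160 and 5300 CPM. The other 9 lie below these, between 2730 and 3550 CPM.

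Actin cytoskeleton and adhesion genes had mostly small negative steps. Of 31 tested members 26 were negative and 5 positive, against 47.9% negative over all tested genes, and 1 passed, Lgals1. The median was -0.14 without CD45 and -0.01 in control, and the CD45 KO median was -0.24 without mature CD45 KO replicate 3. Vim, the vimentin gene, was at 167, 211 and 220 CPM in mature and 306, 355 and 315 CPM in immature CD45 KO libraries (-0.69 ± 0.24, adjusted p = 0.273), with -0.75 ± 0.39 in control. Actg1, which encodes cytoplasmic gamma-actin, had a step of -0.43 ± 0.16 (adjusted p = 0.288), and of -0.26 without the library labelled mature KO replicate 1. The list summed to 19500, 24500 and 25200 CPM in mature and 26600, 24000 and 26600 CPM in immature CD45 KO libraries, which overlapped.

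Interferon response genes gave 0 passing genes of 18 tested, with 13 negative steps and a median of -0.25, against 0.00 in control. Iigp1, an interferon-inducible GTPase gene, was at 35.7, 135 and 123 CPM in mature and 138, 294 and 200 CPM in immature CD45 KO libraries (-1.04 ± 0.38, adjusted p = 0.289). Igtp, of the same GTPase family, was at 71.5, 211 and 238 CPM in mature and 276, 303 and 252 CPM in immature CD45 KO libraries (-0.61 ± 0.27, adjusted p = 0.495). Both were lowest in the library labelled mature KO replicate 1, and without it the steps were -0.72 for Iigp1 and -0.31 for Igtp, and the list median -0.17. That median was -0.38 without mature CD45 KO replicate 3.

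Targets of NF-kB, a transcription factor of inflammatory gene expression, gave 0 passing genes of 11 tested, with 9 positive and 2 negative steps. The median was 0.35, or 0.28 with the gene that is at 0 in a whole group set to its bound, against -0.16 in control. Tnfaip3, encoding the feedback inhibitor A20, was at 143, 67.4 and 141 CPM in mature and 49.3, 51.9 and 73.5 CPM in immature CD45 KO libraries (0.97 ± 0.39, adjusted p = 0.388). Nfkbiz, an NF-kB cofactor gene, had a step of 0.70 ± 0.26 (adjusted p = 0.289), and of 0.45 without the library labelled mature KO replicate 1. The list median without that library was 0.37, and with other single libraries left out it ran from 0.11 (without immature CD45 KO replicate 3) to 0.59 (without immature CD45 KO replicate 2).

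In the remaining lists the passing genes were Klrg1, which is also on the list of inhibitory receptors, and Btg1, on the list of immediate-early and dissociation genes. Of 30 tested members of the latter list, 7 higher and 0 lower had an unadjusted p under 0.05, against 8.04% of all tested genes in both directions together. The stages did not overlap for 3 higher and 2 lower members, against 12.6% of all tested genes. In 8 of the 30 a whole CD45 KO group was at 0, so their fitted steps depend on the prior count. The median step of the list was 0.07, or 0.08 with such genes set to their bound or left out. The list summed to 6850, 5890 and 6400 CPM in mature and 5310, 5550 and 5710 CPM in immature CD45 KO libraries, which did not overlap. In control it summed to 5270, 5700 and 6200 CPM in mature and 5320, 6050 and 5550 CPM in immature libraries, which overlapped. Btg1 is among the summed genes. It gave 1750, 1380 and 1260 CPM of the mature and 779, 952 and 830 CPM of the immature CD45 KO sums. No sum without Btg1 was taken, so the gap cannot be read as a shift of the list. The part of handling was not tested. Genes of the unfolded protein response had 5 positive and 8 negative steps without CD45 (median -0.21) and 10 positive and 3 negative in control (median 0.45), and the CD45 KO median was 0.00 without mature CD45 KO replicate 3 and -0.03 without the library labelled mature KO replicate 1. Ribosomal protein genes had 57 positive and 25 negative steps with a median of 0.07 (0.01 to 0.12 with single libraries left out). Oxidative phosphorylation genes had 17 positive and 28 negative with a median of -0.13 (-0.21 to -0.03). Alarmin and cytokine receptor genes had 9 positive and 4 negative with a median of 0.42, and of 0.25 without the library labelled mature KO replicate 1. Bcl2, a survival gene, was at 167, 194 and 202 CPM in mature and 345, 216 and 315 CPM in immature CD45 KO libraries (-0.61 ± 0.25, adjusted p = 0.395). Its control step was 0.36 ± 0.28, with stages not overlapping. The difference was -0.96 (interval -1.71 to -0.22, adjusted p = 0.926 in edgeR's test). Malat1, a nuclear long noncoding RNA, had a step of 0.50 ± 0.15 without CD45 (adjusted p = 0.119) and 0.43 ± 0.15 with it. The CD45 KO step of Malat1 was 0.17 without the library labelled mature KO replicate 1. Malat1 passed without mature CD45 KO replicate 2 or 3 or immature CD45 KO replicate 2 (steps of 0.62, 0.69 and 0.69).

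**Figure D4:**
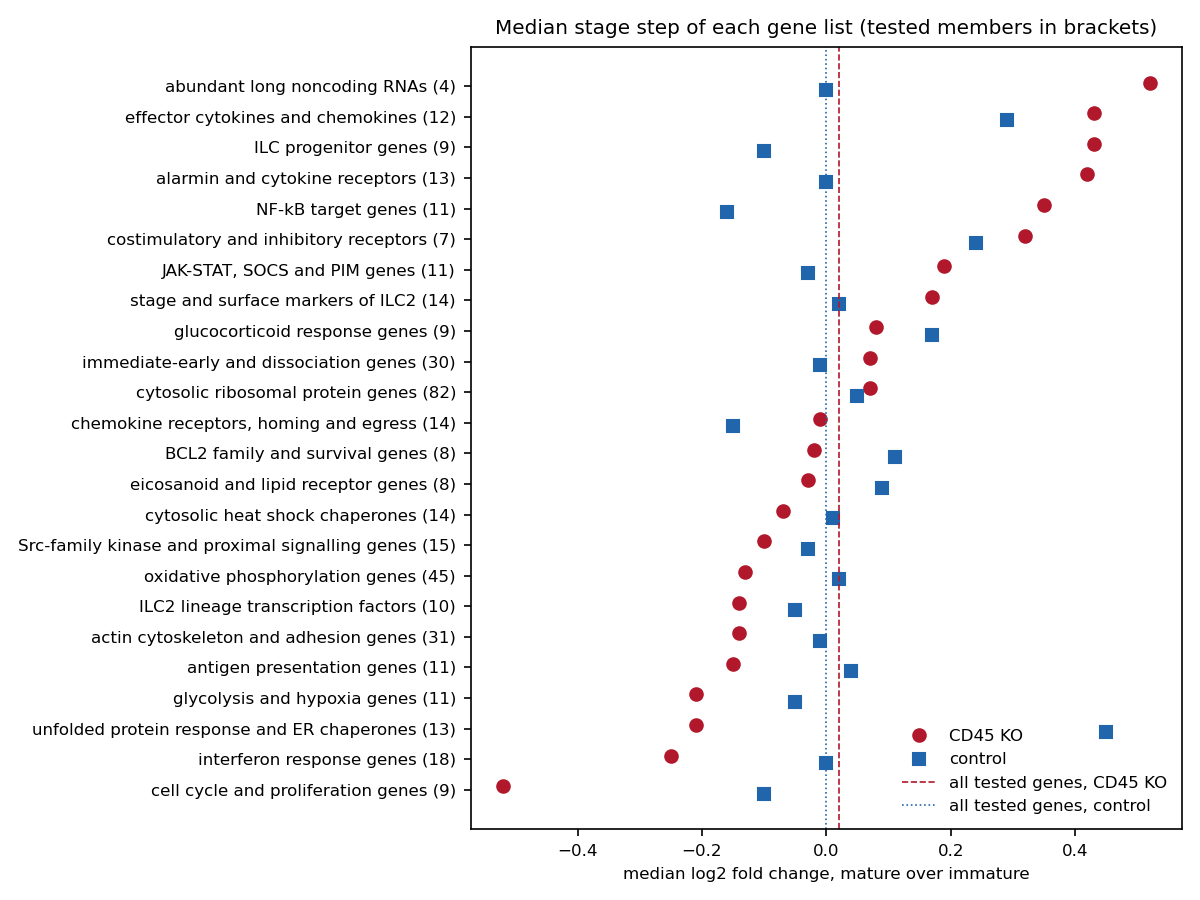
Median stage step of each gene list as a log2 fold change, mature over immature, in CD45 KO and in control, beside the median over all tested genes. Each list is shown with its number of tested genes; the cell cycle list has the lowest CD45 KO median of the lists, at -0.52.

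Whether the maturation step differs without CD45 was tested as the step in CD45 KO minus the step in control, in 1 fit over all genes. Of the 1916 genes 0 passed (0.0%) by edgeR's quasi-likelihood test, and 0 by the Wald test of DESeq2. Without adjustment 94 genes (4.91%) had a p under 0.05 in edgeR and 34 in DESeq2, and the smallest adjusted p in edgeR was 0.761. The 6 genes with the smallest p were Pxdc1, Tnfaip3, Tuba1b, Cdc42, Cxcr6 and Nr3c1. For Tnfaip3 the step was 0.97 ± 0.39 in CD45 KO and -0.78 ± 0.35 in control, a difference of 1.75 (interval 0.71 to 2.79). Cdc42, a gene of actin cytoskeleton control, was at 310, 455 and 352 CPM in mature and 532, 554 and 546 CPM in immature CD45 KO libraries, against 432, 347 and 391 CPM in mature and 376, 258 and 244 CPM in immature control libraries. Its steps were -0.53 ± 0.19 and 0.41 ± 0.23, a difference of -0.93 (interval -1.52 to -0.34). The count was 0 also without mature control replicate 1, the library with neutrophil transcripts, and without the library labelled mature KO replicate 1. Cxcr6 differed by 1.01 (interval 0.37 to 1.65), and by 0.62 without the library labelled mature KO replicate 1.

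Without CD45 13 genes passed and in control mice 1 (0.0522%), Klrg1, with 103 genes (5.38%) at an unadjusted p under 0.05 in control. These counts alone do not show that the steps differ. Of the 13 genes that passed without CD45, 11 had the same sign in control and 2, Tuba1b and Nr3c1, the opposite sign. Libraries of the 2 control stages did not overlap for 3 of the 13, beside 10.2% of all tested genes. The median absolute step of the 13 was 1.18 in CD45 KO and 0.40 in control, and since the genes were chosen for their CD45 KO step these 2 medians are not on an equal footing. The median SE over all tested genes was 0.33 for the CD45 KO step, 0.37 for the control step and 0.50 for their difference, so for a typical gene only a difference well above that SE was detectable at this depth.

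The likeness of the 2 steps, which share no library, is given across the 1916 genes as a description. Pearson's r was 0.11 and Spearman's rho 0.09, and 53.7% of genes had the same sign in both steps. Over the 500 genes with the highest mean level r was 0.22, rho 0.20 and the share of same sign 59.4%. These values are across genes, which are not independent replicates, and both steps come from 1 fit with shared scaling. The median absolute step was 0.24 in CD45 KO and 0.22 in control, under the median SEs of 0.33 and 0.37. A low r therefore does not show that the steps differ. Without mature control replicate 3 r over all genes was 0.00.

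**Figure D5:**
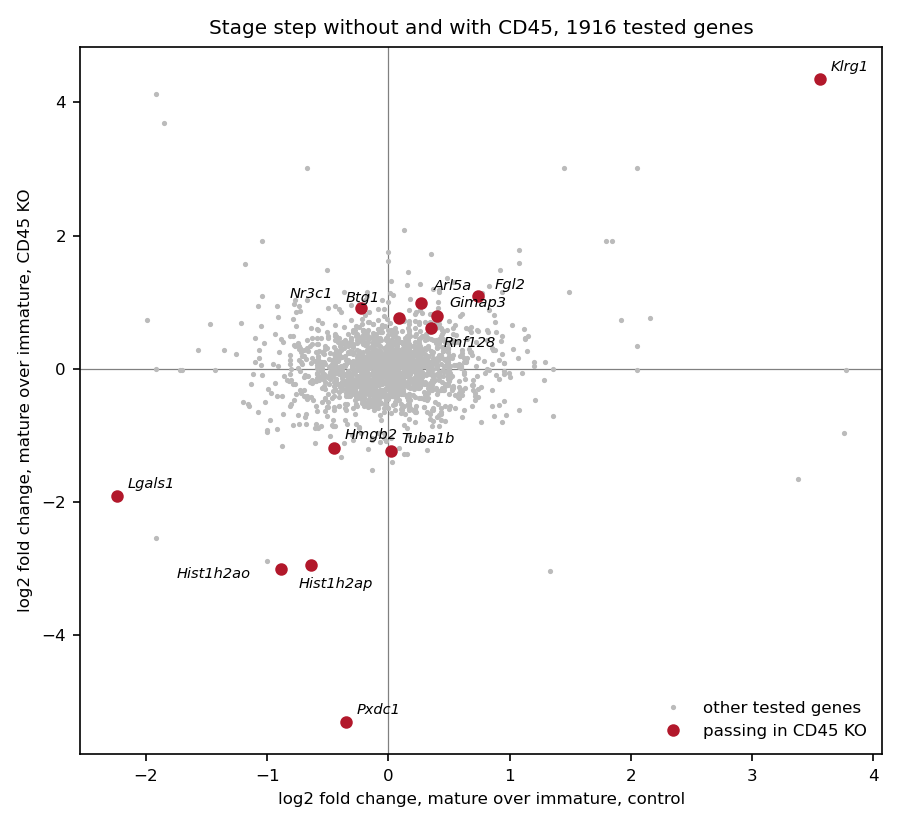
Stage step in CD45 KO (y axis) against stage step in control (x axis) for the 1916 tested genes, both as log2 fold changes, mature over immature, with the passing genes of CD45 KO marked. Points scatter around 0 with r of 0.11, and Klrg1 is far from 0 on both axes; fitted values of genes at 0 in a whole group depend on the prior count.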

How the data were processed

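RNA was counted in sorted ILC2. A sample was 200 cells per the labels, while the extract protocol speaks of 100 per tube, which is not settled here. Per the labels' protocols, lysate was reverse transcribed with a barcoded oligo-dT primer, and cDNA was made by template switching and PCR. STAR and mm10 are named in the submitters' processing notes. Counting tool, annotation, strand use and barcode collapsing were not given in the sources used here. Counts of overlapping and near-identical genes are therefore uncertain. The authors deposited unscaled whole-number counts by gene symbol for 18 libraries, and the table holds 24781 genes and 0 ERCC entries.

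Libraries were grouped by the labels, in 6 groups of 3. TMM scaling was applied, genes were filtered with filterByExpr (minimum count 10), and the counts were fitted with 6 group means over all 18 libraries in edgeR 4.0.16 (R 4.3.3). The filter also took in all 18 libraries, so a gene with few counts in marrow could be tested through its lung counts. The stage step in CD45 KO, the step in control and their difference were tested with edgeR's quasi-likelihood test and Benjamini-Hochberg adjustment, threshold 0.05. SE is the absolute log2 fold change over the square root of F. A floor of 3 counts was used for a group at 0, and it covers counting error only. Gene positions are from GENCODE M21 (GRCm38).

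The libraries, gene lists and named genes were chosen with earlier results of these data known. Named were a panel of ILC2 genes, every passing gene, those with the next smallest p, the 6 with the smallest p for the difference, and leading members of each list. Predicted genes were left out, and not every gene the rule gives is named. Alternatives were DESeq2 1.42.0 (size factors, Wald test), other filters, smaller sets of libraries, a replicate block, no ribosomal RNA repeats, and leaving out each library. The code was checked on simulated counts with known changes, which says nothing of the stage steps themselves.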

Additional observations from a re-analysis of the deposited data

How the results depend on the processing

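The count of 13 genes for the CD45 KO stage step was 9 to 13 under the other scalings, filters, smaller sets of libraries and without the ribosomal RNA repeats. It was 3 by the Wald test of DESeq2 (Klrg1, Tuba1b and Btg1), which had 80 genes at an unadjusted p under 0.05. With single libraries left out it ran from 7 (without immature CD45 KO replicate 2) to 20 (without mature CD45 KO replicate 2), with 8 without immature CD45 KO replicate 1 or 3. Klrg1, Btg1, Tuba1b and Pxdc1 were called in each of these 6 fits. The control count of 1 was 4 with no filter on low counts (Klrg1, Ngp, S100a8 and S100a9, the last 3 neutrophil genes) and 2 with only the libraries of the contrast (Klrg1 and Malat1). The count of 0 for the difference was 0 under every alternative run. The likeness of the steps (r of 0.11) ran from 0.00, without mature control replicate 3, to 0.13.

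Reversed signs were seen for the Lgals1 difference, at -0.58 without the library labelled mature KO replicate 1, -0.09 without mature control replicate 1 and -0.13 without mature control replicate 2 (highest with 1 library left out, 3.19), and for the CD45 KO steps of Ptprc (-0.02, highest 0.90) and Rora (-0.22, highest 0.57) without the library labelled mature KO replicate 1. The cause was not tested. Of 950 gene values under alternatives 885 kept direction and side of the threshold, 49 lost and 11 gained a call, and 5 reversed. Deviations from the group means had r of -0.056, -0.086 and 0.029 between same-numbered mature and immature CD45 KO libraries. With a median of 12.6 counts in a library, these values cannot show whether same-numbered samples were paired. With the replicate number as a block 14 genes passed. Genes with low counts were not tested at this depth.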

Other observations

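Lung ILC2 of CD45 KO mice, the tissue population, were not part of the stage step, and their levels of the genes that passed in it are set beside those in marrow. Klrg1 was at 122 ± 25.6 CPM in lung CD45 KO ILC2, against 224 ± 109 CPM in mature and 9.27 ± 8.72 CPM in immature marrow CD45 KO ILC2 (SD, n = 3 each). Among genes higher in mature marrow cells, Btg1 was at 3740 ± 727 CPM and Fgl2 at 1550 ± 124 CPM in lung, above every marrow group, while Arl5a was at 138 ± 2.55 CPM and Rnf128 at 518 ± 68.8 CPM, below every marrow CD45 KO group. Among genes lower in mature marrow cells, Pxdc1, with 0 counts in mature CD45 KO cells, was at 322 ± 59.2 CPM in lung, and Lgals1 at 336 ± 70.4 CPM. Tuba1b was at 252 ± 110 CPM in lung, between the 2 marrow stages. Tnfaip3 was at 2620 ± 239 CPM in lung, against 117 ± 43.0 CPM in mature and 58.2 ± 13.3 CPM in immature marrow CD45 KO ILC2. These levels are given as a description, with no test.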
